A study of Mus musculus with 2 samples.

Results

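The results concern 8 mouse miRNAs that are commonly used as normalisation references for small RNA: mmu-miR-103-3p, mmu-miR-107-3p, mmu-miR-26a-5p, mmu-miR-30c-5p, mmu-miR-423-5p, mmu-miR-423-3p, mmu-miR-191-5p and mmu-miR-484, written without the species prefix from here on. They were chosen by name, by a rule that uses no measured value but was set with earlier results of these data known, and all 8 were found among the 1881 mouse miRNAs of the array. RNA came from exosomes, the small membrane vesicles that cells shed, isolated from medium conditioned by LLC cells (Lewis lung carcinoma, a transplantable mouse tumour line). The cells had spent 24 h without serum in the presence of 5 µM of the DNA-damaging drug cisplatin. A single group was measured, with 2 exosome preparations from separate experiments and 1 one-colour Agilent miRNA array for each. Exosomes of untreated cells were not analysed here. The question asked of the 8 miRNAs was which of them could act as a reference in exosome RNA, judged by detection and by the difference between the arrays against the dmr spike-in controls. The number of arrays, 2 in 1 group, limits the precision and allows no test.

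A miRNA is a short RNA that, loaded into an Argonaute protein, pairs with target mRNAs mainly through its seed, bases 2 to 8 from the 5′ end, and lowers their stability or translation. A reference miRNA is one whose level is taken as constant between samples, so that other miRNAs can be expressed relative to it. The choice matters in vesicle RNA because small nuclear and nucleolar RNAs, the usual references in cells, need not be present in exosomes. An added spike-in RNA follows losses and efficiency from its point of addition onward, whereas a reference miRNA also follows the amount of sample RNA.

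The mature sequences below, from RefSeq (GRCm38.p6), show which of the references are related and could share array signal. Capitals mark the seed.
miR-103-3p: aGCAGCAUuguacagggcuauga
miR-107-3p: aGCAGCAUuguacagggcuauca
miR-26a-5p: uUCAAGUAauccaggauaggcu
miR-30c-5p: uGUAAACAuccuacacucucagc
miR-423-5p: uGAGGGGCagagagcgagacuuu
miR-423-3p: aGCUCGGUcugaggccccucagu
miR-191-5p: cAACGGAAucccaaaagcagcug
miR-484: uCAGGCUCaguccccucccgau

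miR-103-3p and miR-107-3p have the same seed and differ by a single substitution, G22C, counted from the 5′ end of miR-103-3p. No other pair among the 8 shares a seed. All 8 sequences were matched in RefSeq. miR-103-3p is encoded at chr2:131288103-131288125 (+ strand), within Pank2, and at chr11:35782447-35782469 (+), within Pank3. miR-107-3p is encoded at chr19:34820700-34820722 (-), within Pank1, so all 3 loci lie inside pantothenate kinase genes. miR-26a-5p also has 2 loci, chr9:119031811-119031832 (+) within Ctdspl and chr10:126995543-126995564 (+) within Ctdsp2, genes of small CTD phosphatases. miR-30c-5p comes from chr4:120769584-120769606 (-) within Nfyc and from chr1:23291714-23291736 (+). Both arms of miR-423 come from 1 hairpin within Nsrp1, at chr11:77078122-77078144 for the 5p arm and chr11:77078086-77078108 for the 3p arm (-). miR-191-5p lies at chr9:108568325-108568347 (+) within Dalrd3, and miR-484 at chr16:14159630-14159651 (+). These positions say which gene bounds a miRNA falls in, and exons and introns were not used here.

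Only miR-103-3p, which is known for acting on metabolic and Dicer mRNAs, was detected on both arrays. A miRNA counted as detected when at least 1 of its probes had a total signal over 3 times its listed error. miR-107-3p, miR-26a-5p and miR-423-5p were detected on array 1 only, and neither array detected miR-30c-5p, miR-484, miR-191-5p or miR-423-3p. Detection on both arrays was thus 1 of 8 (12.5%), against 201 of all 1881 miRNAs (10.7%). On array 1 it was 4 of 8, against 312 of all miRNAs (16.6%), and on array 2 it was 1 of 8, against 202 (10.7%). The 3 of 8 detected on array 1 only compare with 111 of all miRNAs (5.9%). None of the 8 was detected on array 2 alone. The share detected on both arrays lies near that of the whole array. With array 2 left out the count was 4. It was 0 under each of 4 stricter rules, such as a majority of the spots of a miRNA well above background on both arrays, which 88 of all miRNAs (4.68%) met.

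The 2 probes of miR-103-3p differed in brightness, and both were brighter on array 1. On the brighter probe the processed intensity, the background-subtracted spot brightness on a linear scale, was 57.7 ± 4.93 on array 1 and 15.2 ± 1.81 on array 2 (SD over 15 spots each). The spots ran from 49.2 to 67.0 on array 1 and from 11.2 to 18.2 on array 2, so the arrays did not overlap. The dimmer probe gave 12.2 ± 3.27 and 2.58 ± 2.10 (SD over 15 spots each), again without overlap, since its lowest spot on array 1 was 8.03 and its highest on array 2 was 6.92. The brighter probe reached 8.97 times its error on array 1 and 4.64 times on array 2, and the dimmer one 3.97 and 0.88 times. Detection on array 2 therefore rested on 1 of its 2 probes, with 10 of 15 spots of that probe well above background. Spots of a probe share an RNA sample, so their SD covers spotting and reading error only.

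As a level over both probes, in log2 of the processed intensity with intensities under 1 set to 1, miR-103-3p stood at 4.70 on array 1 and 2.54 on array 2. Its mean was 3.62 ± 1.53 (SD, n = 2) before scaling. Scaled to the 75th percentile of the 201 detected miRNAs on each array, which removes 1.71 log2 units between the arrays, the mean was 3.58 ± 0.38 (SD, n = 2). The level on array 2 lay under the limit of 3.21 set by the mean plus 3 SD of the negative-control spots of that array, and the level on array 1 lay over its limit of 2.90. By probe, the detected one stood at 3.92 on array 2, over that limit, and the other at 1.17, under it.

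**Figure D1:**
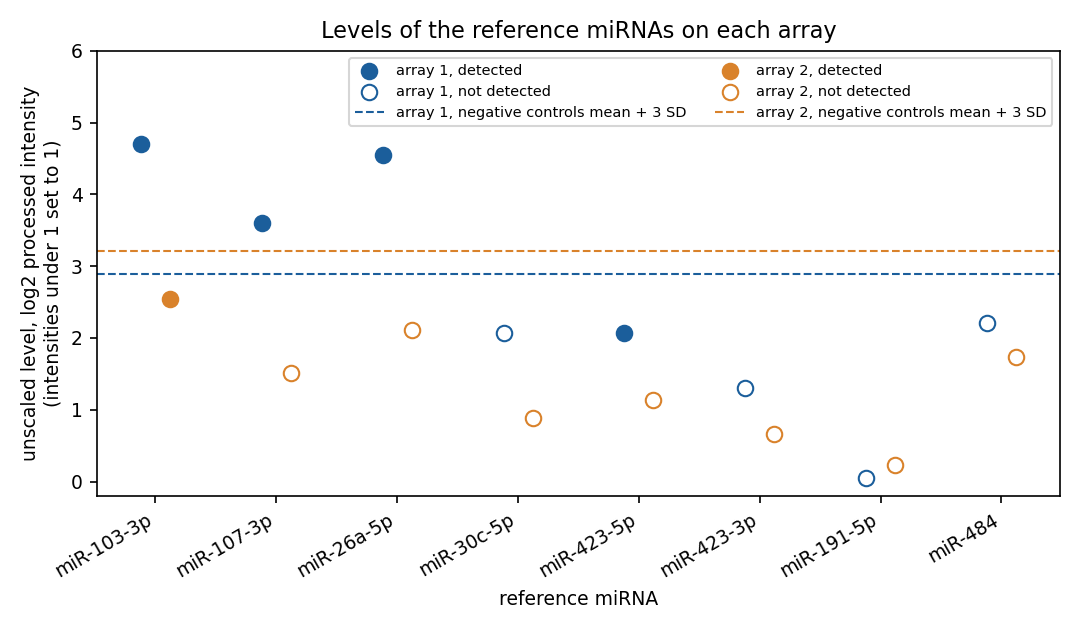
Unscaled log2 level of each reference miRNA on array 1 (blue) and array 2 (orange), averaged over spots and probes. Filled points are detected and open points are not, and dashed lines mark the mean plus 3 SD of the negative-control spots. Only miR-103-3p is filled on both arrays, and its level on array 2 (2.54) lies below the line of that array (3.21). That level averages 2 probes, of which the detected one alone stood at 3.92 on array 2.

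miR-107-3p, a relative of miR-103-3p with much the same predicted targets, was detected on array 1 and fell below the limit on array 2. Its brighter probe gave 23.7 ± 3.14 on array 1 and 4.67 ± 2.45 on array 2 (SD over 15 spots each), or 6.44 and 1.58 times its error. All 15 spots of that probe were well above background on array 1 and 0 on array 2. Against the lowest level of a probe mostly well above background on array 2, the signal of that probe was at least 1.73-fold higher on array 1. The other probe was under the limit on both arrays, at 2.30 and 0.70 times its error. The probes of miR-107-3p and miR-103-3p address sequences that differ by 1 base, and how far either set picks up the other miRNA was not tested.

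miR-26a-5p, which represses Ezh2 and cell-cycle mRNAs, had 2 well-detected probes on array 1. They gave 34.0 ± 3.67 and 16.4 ± 2.19 there, and 8.48 ± 3.19 and 2.71 ± 2.29 on array 2 (SD over 15 spots each). The first probe was 7.70 times its error on array 1 and 2.79 times on array 2, just short of the limit of 3. The second was at 5.05 and 0.93 times. Of the 30 spots of miR-26a-5p, 27 were well above background on array 1 and 0 on array 2. The brighter probe was at least 2.50-fold higher on array 1 and the dimmer one at least 1.20-fold. Although most spots of miR-26a-5p were well above background on array 1, it fell out of the detected set when both arrays were required.

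miR-423-5p and miR-30c-5p stood on either side of the detection limit on array 1. The brighter probe of miR-423-5p, a miRNA often reported as abundant in plasma, gave 10.0 ± 3.07 on array 1 and 3.76 ± 1.99 on array 2 (SD over 15 spots each), or 3.36 and 1.28 times its error. Only 1 of its 30 spots was well above background on array 1. The brighter probe of miR-30c-5p, of the miR-30 family, gave 8.70 ± 3.02 and 3.04 ± 3.46 (SD over 15 spots each), or 2.96 and 1.04 times its error. The call of detected for the first and not detected for the second thus turned on 3.36 against 2.96. The unscaled log2 level of miR-423-5p was 2.07 on array 1 and 1.14 on array 2, and that of miR-30c-5p was 2.06 and 0.89.

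miR-484, miR-423-3p and miR-191-5p gave no detectable signal on either array. The probes of miR-484, a regulator of mitochondrial fission, gave 5.34 ± 2.20 and 4.90 ± 2.10 on array 1 and 3.12 ± 2.05 and 4.67 ± 2.82 on array 2 (SD over 14 or 15 spots), with at most 1.87 times the error. The best of the 4 probes of miR-423-3p reached 1.89 times its error on array 1 and 0.73 times on array 2. All 4 probes of miR-191-5p had mean intensities below 0 on both arrays, from -3.05 to -0.73 on array 1 and from -2.38 to -0.43 on array 2. Its log2 levels of 0.05 and 0.23 sit at the floor and have no order. 0 spots of these 3 miRNAs were well above background on either array. Levels of different miRNAs are not ranked here, since brightness depends on the probe.

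**Figure D2:**
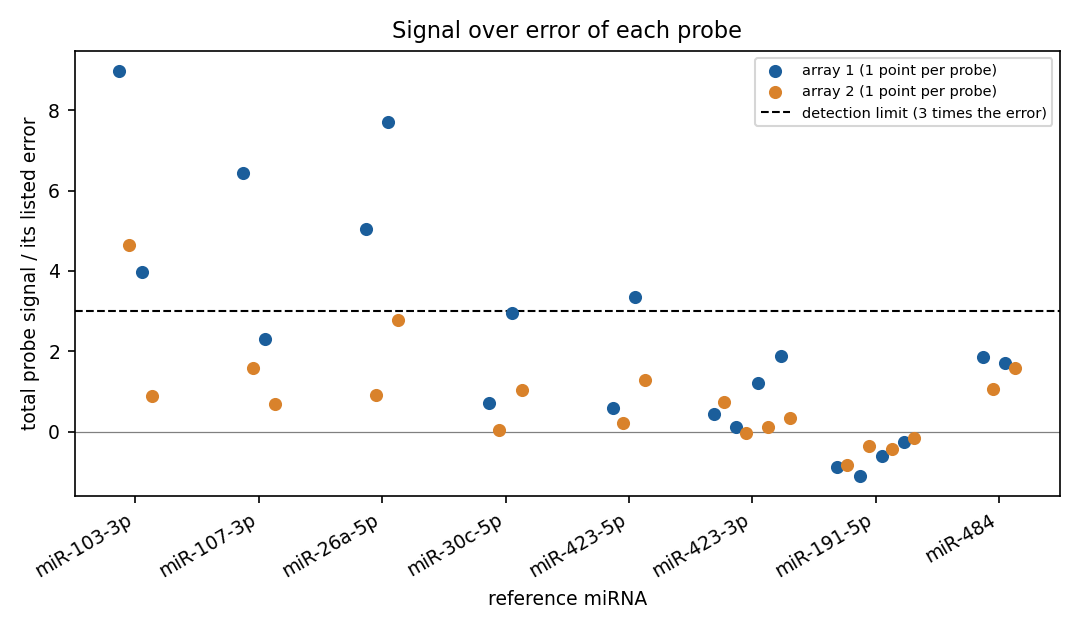
Total probe signal divided by its listed error for each probe of the reference miRNAs on array 1 (blue) and array 2 (orange), with the detection limit of 3 dashed. On array 1, 6 of the 20 probes lie above the limit, and on array 2 only 1, the brighter probe of miR-103-3p. Detection over all 1881 miRNAs was also lower on array 2, with 202 (10.7%) against 312 (16.6%) on array 1. These are shares of miRNAs, and no share over all probes is given here.

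Over the 20 probes of the 8 miRNAs, 15 had the higher mean intensity on array 1, though only 6 of the 20 were detected there. The same count over all probes of the array was not made. Over the 201 miRNAs detected on both arrays the median log2 difference was 0.78, also towards array 1. The 4 miRNAs detected on array 1 had a GC content of 40.9% to 56.5% and the other 4 of 43.5% to 65.2%, ranges that overlap. The 1 detected on both arrays had 47.8%, the same as miR-107-3p.

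The dmr spike-in controls give the yardstick for a difference between the arrays. In the file headers a labelling spike-in metric equals the mean of dmr_285 and dmr_31a and a hybridisation spike-in metric equals the mean of dmr_6 and dmr_3, within 0.0001 on both arrays. The unscaled log2 level of dmr_285 was 9.25 on array 1 and 8.97 on array 2. It was 9.24 and 9.16 for dmr_31a, 8.83 and 8.72 for dmr_6, and 11.40 and 11.34 for dmr_3. Array 1 was the brighter for all 4 before scaling, by 0.27, 0.08, 0.11 and 0.06 log2 units in that order, with a median of 0.09. The labelling pair differed by 0.18 on average and the hybridisation pair by 0.09. Another pair of controls with dmr names, dmr_308 and dmr_316, was detected on neither array. It was left out of the spike-in median and range. Unscaled log2 levels were 0.37 and 0.68 for dmr_308, and 1.97 and 1.53 for dmr_316. The computed differences, -0.31 and 0.44, were larger in size than 0.27 and of opposite sign, but rest on signals under the detection limit. All 4 controls used were far brighter than miR-103-3p (4.70 and 2.54). The spread between arrays of controls at its brightness was thus not measured.

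The array difference of miR-103-3p was 2.16 log2 units, array 1 minus array 2, and 2.06 after the spike-in median was taken off. That is far outside the 0.06 to 0.27 spanned by the spike-in controls used, all of them far brighter than miR-103-3p. The probe detected on both arrays differed by 1.93. The other probe was not detected on array 2, and its computed difference of 2.39 raises the value over both probes. Of the 201 miRNAs detected on both arrays, 17 had a larger difference. The median over all 201 was 0.78 (interquartile range 0.19 to 1.66), and 85 (42.3%) were over 2-fold brighter on array 1. In size, 52 of the 201 (25.9%) differed by no more than the largest spike-in difference. miR-103-3p, the only 1 of the 8 detected on both arrays, did not. Before scaling, none of the 8 thus met both criteria, detection on both arrays and a difference no larger than that of the spike-in controls. With normexp background correction and an offset of 50, the difference of miR-103-3p was 0.44, or 0.35 less the spike-in median. It still exceeded every spike-in control used. A lower amount of sample RNA and less of these miRNAs per amount of RNA cannot be told apart here.

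For the miRNAs detected on array 1 only, the direction follows from how they were detected, and array 2 gives no measured level to compare. The bounds above, at least 2.50-fold for the brighter probe of miR-26a-5p and at least 1.73-fold for that of miR-107-3p, are unscaled. The computed differences in levels, 2.44 for miR-26a-5p, 2.08 for miR-107-3p and 0.93 for miR-423-5p, include probes under the detection limit and are given as a description. The last turned to -0.29 when scaled to the 75th percentile of the detected miRNAs. For the 4 miRNAs detected on neither array the differences were 1.17 (miR-30c-5p), 0.65 (miR-423-3p), 0.47 (miR-484) and -0.18 (miR-191-5p), and none of these rests on a probe past the limit.

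**Figure D3:**
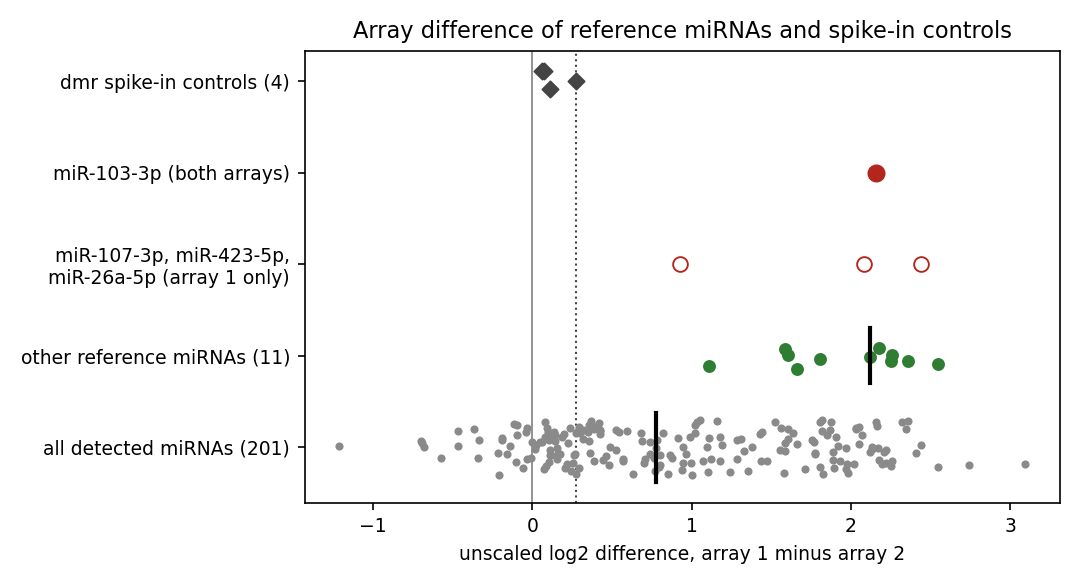
Unscaled log2 difference, array 1 minus array 2, for the 4 spike-in controls, the reference miRNAs detected on both arrays or on array 1 only, 11 other miRNAs used as references and all 201 miRNAs detected on both arrays; black bars are medians and the dotted line is the largest spike-in difference (0.27). miR-103-3p, at 2.16, lies far to the right of the spike-in controls and near the median of the other references (2.12). Points of miRNAs detected on array 1 only rest on array 2 signals under the detection limit.

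After scaling to the 75th percentile, miR-103-3p was still 0.53 log2 units brighter on array 1, while the differences of the spike-in controls turned to between -1.65 and -1.44, array 2 being the brighter. On that scale the difference of miR-103-3p was smaller in size than those of the spike-in controls. This follows from the shift of 1.71 log2 units that the scaling removes, which is set by the detected miRNAs themselves. The miRNAs with an array difference most like that of miR-103-3p, over the 2 arrays, were miR-23b-3p (2.16), miR-23a-3p (2.17) and let-7g-5p (2.18). These are within 0.02 of its value.

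Other miRNAs that serve as references were examined as a list of 25, all on the array. On both arrays 11 of 25 (44.0%) were detected, against 10.7% of all miRNAs, on array 1 only 5, against 5.9%, and on neither 9. The 11 had a median difference of 2.12 and a range of 1.11 to 2.55, so they too lay outside the range of the spike-in controls. Nearest to the spike-in controls were miR-92a-3p (1.11), miR-25-3p (1.59), miR-16-5p (1.60), miR-93-5p (1.66) and miR-22-3p (1.81). Farthest were miR-221-3p (2.55), let-7d-5p (2.36), let-7a-5p (2.26), let-7i-5p (2.25) and let-7g-5p (2.18). On array 2 the levels of miR-93-5p (1.92), let-7g-5p (2.90), miR-221-3p (3.12) and miR-22-3p (3.18) lay under the negative-control limit of 3.21. Their differences, and their places in this order, thus rest on dim signals. The other references named here lay over that limit. Unscaled log2 levels of miR-92a-3p were 5.51 on array 1 and 4.40 on array 2, those of miR-16-5p 5.06 and 3.45, and those of let-7a-5p 7.25 and 4.99. The list was drawn with results of these data known.

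Relatives of the 8 were described by shared hairpin, shared seed or neighbouring transcription. A pair of them is shown, again from RefSeq with the seed in capitals, as the other arm of the miR-191 hairpin and the seed relative of miR-26a-5p.
miR-191-3p: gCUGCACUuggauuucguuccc
miR-26b-5p: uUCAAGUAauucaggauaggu

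Of 7 other arms of the same hairpins on the array, 1 (14.3%) was detected on both arrays, against 10.7% of all miRNAs. It was miR-191-3p, the passenger strand of the hairpin whose guide strand miR-191-5p had intensities below 0. The 4 probes of miR-191-3p had mean intensities of 9.19 to 10.7 on array 1 and 7.55 to 9.85 on array 2. All 4 passed the limit on array 1, at 3.12 to 3.56 times their error, and 1 of 4 on array 2, at 3.20 times. Its array difference was 0.22, inside the largest spike-in difference, but 2 of its 30 spots on array 1 and 1 of 26 on array 2 were well above background. Of 6 listed miRNAs of the miR-26 and miR-30 seed families, 1 (16.7%) was detected on both arrays, against 10.7% of all miRNAs. It was miR-30d-5p (3.88 and 3.08, a difference of 0.80). On array 2 it passed by 1 probe at 3.01 times its error, with the other at 2.75. Only 1 of its 30 spots was well above background there, and its level lay under the negative-control limit of 3.21. Another 3 were detected on array 1 only, against 5.9% of all miRNAs, and 2 on neither. The list is not complete: miR-6921-5p, also on the array, has the seed of miR-423-5p and was not included. miR-26b-5p, which differs from miR-26a-5p by C11U and C21U and ends 1 base earlier, was detected on array 1 only, as was miR-26a-5p. Of 4 listed miRNAs transcribed beside a reference, 0 were detected on both arrays, against 10.7% of all miRNAs. That list covers neighbours of miR-191 and of the miR-30c-5p locus within Nfyc only. It is not complete, since neighbours of the other miR-30c-5p locus were not included. miR-425-5p, neighbour of miR-191, was detected on neither (0.93 and 0.33).

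How the detected miRNAs compare between the arrays depended on the reference subtracted. A reference takes the same value off every difference. Each count below is thus fixed by where that value lies among the 201 array differences already described, and is no separate evidence on a reference. With no reference, 86 of the 201 were over 2-fold apart in either direction, and 80 with the spike-in median as the reference. With miR-103-3p as the reference, 127 of the other 200 (63.5%) were over 2-fold apart, and the median remaining difference was -1.38. The 75th percentile left 98 of 201. With normexp and an offset of 50 the order turned: 3 were over 2-fold apart with miR-103-3p as the reference and 18 with the spike-in median. Split by registry number, a rough proxy for how early a miRNA was found, the picture was uneven. Of the 87 numbered under 1000, let-7 included, 56 were over 2-fold apart with no reference and 53 with the spike-in median. With miR-103-3p the number was 36 of 86. Of the 114 numbered 1000 or above, 30 were over 2-fold apart with no reference, 27 with the spike-in median and 91 with miR-103-3p. miR-92a-3p, the least different of the detected references, left 62 of 200 over 2-fold apart, 28 of the 86 with low numbers and 34 of the 114 with high ones. Median unscaled differences were 1.60 in the first set and 0.43 in the second.

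**Figure D4:**
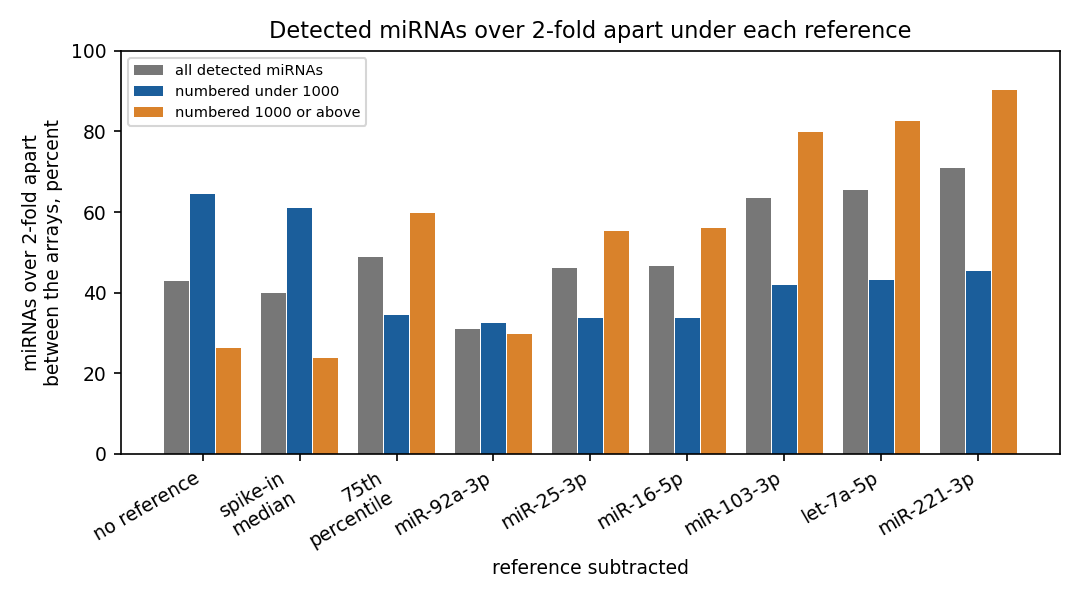
Percentage of the miRNAs detected on both arrays that differed over 2-fold between the arrays after each reference was subtracted, for all of them (grey), for those numbered under 1000 (blue) and for those numbered 1000 or above (orange). With miR-103-3p as the reference 63.5% of all lay over 2-fold apart, against 39.8% with the spike-in median. Each percentage is fixed by where the difference of the reference lies among those of the detected miRNAs.

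The listed total of 1 reference did not match its own probes. On array 1 the scanner file gave miR-423-5p a total signal of 116.2, while its only detected probe had a total of 2.13. The excess of 114.1 equals the listed total of miR-3968, the detected name just before it in alphabetical order (114.1). For miR-103-3p, miR-107-3p and miR-26a-5p the listed totals on array 1, of 14.8, 5.02 and 10.7, equalled the sums of their own detected probes. In the authors' deposited table miR-423-5p stands at -2.22 on array 1 and at the lowest value, -3.32, on array 2, so the excess is not seen there. In the same table miR-103-3p was 3.26 and 2.26, a difference of 0.99, while dmr_285, dmr_31a and dmr_6 had differences of -0.52, -0.30 and -0.72, array 2 being the brighter, and dmr_3 was equal. miR-107-3p and miR-26a-5p, undetected on array 2, had values of -0.84 and 0.39 there. miR-484, miR-30c-5p, miR-191-5p and miR-423-3p were at the lowest value in both columns.

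Neither array had a saturated spot among its 58594 spots, and both lay on 1 slide and in 1 scan, per the file headers. Of the listed cell type markers, 0 of 3 red cell and 0 of 3 leukocyte miRNAs (1 on array 1 only) were detected on both arrays. Of the endothelial and epithelial ones, 0 of 1 and 0 of 5 were, where 10.7% of all miRNAs were. The leukocyte miRNA detected on array 1, miR-142a-3p, stood at 4.21 there and at 1.95 on array 2. Their unscaled log2 levels ran from 0.43 to 2.42 (red cell), 0.29 to 4.21 (leukocyte) and 0.06 to 0.86 (epithelial) on array 1, and the endothelial miRNA stood at 2.35. On array 2 they ran from 0.48 to 1.32, 0.23 to 2.49 and 0.02 to 0.82, with 0.64 for the endothelial miRNA. Their part in the levels of the references was not tested.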

How the data were processed

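Exosome RNA of 2 samples of a single group was read on one-colour (Cy3) arrays. Spot intensities in the deposited scanner files came from version 10.7.1.1 of Agilent Feature Extraction, as the submitters' processing notes state. The processed intensity is background-subtracted and spatially detrended within each array and is not normalized between arrays, per the file headers. The value table deposited by the authors is on a log2 scale, judged from its numbers. How it was centred is unknown, its sorted columns are identical (median -3.32 in each), and it served as an alternative. The labels describe cRNA labelling of 0.5 µg RNA, while the scanner protocol is for miRNA arrays.

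Population-outlier spots were left out (1069 and 1152). For a level, log2 intensities were averaged over spots and then over probes, with intensities under 1 set to 1; scaled values were scaled first and floored afterwards. Detection followed the file's flag, which equalled the rule of 1 probe over 3 times its error for all 1902 names. Negative controls comprised 995 and 990 spots after outliers were left out. All members are named, and from the lists at most the 5 nearest to and 5 farthest from the spike-in median, with 3 nearest neighbours in array difference. miR-425-5p, miR-26b-5p, miR-142a-3p, miR-6921-5p and miR-3968 were named after their values were seen. Members and lists were chosen with earlier results of these data known. Alternatives covered detection, background (normexp, offset 50), probe summary, floor, outliers and scaling. Python 3.11.15, numpy 2.4.6, pandas 2.3.3, matplotlib 3.10.9, R 4.3.3 and limma 3.58.1 were used. On simulated arrays of 1881 miRNAs a spike-in shift of 0.5 was recovered as 0.501, and the median absolute error was 0.023 for 79 bright differences and 0.154 for 72 dim ones. Bright ones stayed well above background after the built-in change. Only some of the detected miRNAs were given a change. The error for a large fall to near background, as computed for miR-103-3p, was not reported separately.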

Additional observations from a re-analysis of the deposited data

How the results depend on the processing

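The number of reference miRNAs detected on both arrays, 1, fell to 0 if most spots of a miRNA were required well above background (4.68% of all miRNAs then passed), when the mean had to exceed the negative controls by 3 SD (8.72%), when the listed total had to exceed 6 times its error (7.92%) and when every probe had to pass (6.17%). It was 4 with detection on at least 1 array, and with 1 array left out it was 1 (array 2 alone) to 4 (array 1 alone). The negative-control rule averages over all probes of a miRNA, detected or not. The rule on listed totals has a limit too, since that of miR-423-5p on array 1 was 116.2 against 2.13 for its detected probe. How many other names have such an excess was not counted. miR-103-3p was brighter on array 1 under every setting, by 0.44 to 2.20 log2 units. Its difference fell to 0.44, or 0.35 less the spike-in median, with normexp and an offset of 50, which is added before log2 and draws dim signals together, and to 0.53 with the 75th percentile of detected miRNAs. With normexp 3 miRNAs were over 2-fold apart with miR-103-3p as the reference and 18 with the spike-in median, so the order of these references turned. The last comparison, and the difference of miR-103-3p less the spike-in median in the authors' table (1.40), were chosen after seeing the data. With no scaling, miR-103-3p, the only 1 of the 8 detected on both arrays, exceeded the largest spike-in difference under the 6 background, probe, outlier and floor settings. With the 75th percentile of detected miRNAs, miR-103-3p (0.53) was smaller in size than the spike-in controls (-1.65 to -1.44). That reversal follows from the shift of 1.71 log2 units, set by the detected miRNAs, that this scaling removes. No paired analysis was possible because there is a single group. Signals near the negative controls limit most values of the 8 on array 2.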
